A study of Mus musculus with 4 samples.

Results

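RNA pulled down with the protein NONO from mouse primary hepatocytes was compared between cells given proline and control cells. The comparison covers the 2827 of 21163 listed transcripts with a mean of at least 20 FPKM over the 2 NONO immunoprecipitation (IP) libraries. FPKM is the fragment count scaled by transcript length and by library size. Members were chosen on this mean alone, so a transcript can pass through its higher IP while the other lies under 20 FPKM. At least 20 FPKM in each IP was reached by 2455 transcripts. There was 1 IP library from each treatment (labelled Ctrl and Proline) and 1 input library of the lysate before the pull-down. No group was replicated, which leaves no spread to test against. "Higher" and "lower" below therefore compare 2 libraries, not 2 conditions. Where a pair of values is given, the control comes first and ratios are proline over control. A mock IP was not analysed here. The sources used here do not state the dose and duration of proline, the strain or the number of mice.

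NONO binds RNA and is a core protein of paraspeckles. These nuclear bodies assemble on the long noncoding RNA Neat1 and can keep other RNAs from leaving the nucleus. Hepatocytes are the main cells of the liver parenchyma and make glucose from precursors such as amino acids, proline among them. The study took NONO as a stand-in for paraspeckles and asked whether proline alters the mRNAs held there. A NONO IP samples RNA bound to the protein wherever it sits, whereas the input samples all RNA of the lysate. The mean IP level lay below the mean input level for 1854 members (65.6%), so membership means that an RNA was measured in the IPs, not that it was enriched there.

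The tables list Ensembl transcript identifiers without gene names, and none of the 49997 genes in the gene table used here carries an Ensembl identifier. Transcripts are therefore told apart by the length recovered from their FPKM values, and identifiers are given for a few. Hepatocyte markers, markers of other liver cells, paraspeckle proteins and gluconeogenic genes were not checked here for the same reason. Members were counted as transcripts, and how many genes they stand for was not analysed here.

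Whole reads were recovered from the FPKM values. The control IP held 1786928 reads and the proline IP 954824, 1.87 times fewer, against 22188003 and 20826758 in the control and proline inputs. A transcript of 2000 nt at 20 FPKM corresponds to 71.5 control IP reads and 38.2 proline IP reads. The members took 70.9% of the control IP reads and 74.9% of the proline IP reads. The control IP had a median of 184 reads a member, with a range of 6 to 146333. In the proline IP the median was 91 reads, with a range of 2 to 165742. Member lengths had a median of 2292 nt and quartiles of 1449 and 3730 nt (lowest 135, highest 123179). Just inside the limit lay transcripts with a mean of 20.003, 20.004 and 20.006 FPKM, and just outside it lay transcripts at 19.98, 19.99 and 19.997 FPKM.

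Most members had nearly the same level in both IPs. The difference, log2(proline FPKM + 1) minus log2(control FPKM + 1), had a median of -0.10, quartiles of -0.33 and 0.15, and a range of -1.52 to 2.20. The median corresponds to a ratio of 0.932. Of the 2827 members, 2777 (98.2%) differed by less than 2-fold and 2455 (86.8%) by less than 1.5-fold. Of the 100 transcripts with the highest FPKM in each IP, 89 (89%) were shared, and of the 1000 highest in each, 877 (87.7%). Over the members the 2 IPs had a Pearson correlation of 0.95 on the log2(FPKM + 1) scale and the 2 inputs one of 0.889. Both are computed across transcripts and so describe these libraries only.

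A difference of 2-fold or more upward was found for 28 members (0.99%) and one downward for 22 (0.778%). Over the 13378 transcripts with a mean of at least 1 FPKM in the IPs, a set that rests on far fewer reads per transcript, the shares were 3.75% and 7.51%. At 1.5-fold, 143 members (5.06%) were higher and 229 (8.1%) lower, beside 9.6% and 19.4% in that wider set. The exact 95% counting interval of the FPKM ratio lay above 1 for 335 members (11.9%) and below 1 for 653 (23.1%), beside 5.46% and 13.3% in the wider set. It excluded 1 for all 28 of the 2-fold higher members and 20 of the 22 lower ones. Those members were picked on the same reads, so this is no separate support for them. These intervals cover counting error only, so the spread between cultures and PCR copies lie outside them.

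The split into higher and lower depended on the scaling. With differences centred on their median, 44 members were at least 2-fold higher and 13 lower. Over the same 2827 members, scaling both IPs to the same FPKM total gave 24 and 33 and a median of -0.15. With the most-read transcript left out of the IP totals, the same members gave 53 and 9 and a median of 0.047. With members chosen again after that rescaling, 3288 transcripts gave 69 and 13 and a median of 0.044. FPKM is a share of its library, so the total amount of RNA bound to NONO was not measured. In a bulk sample, fewer cells of a type and less RNA per cell cannot be told apart.

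**Figure D1:**
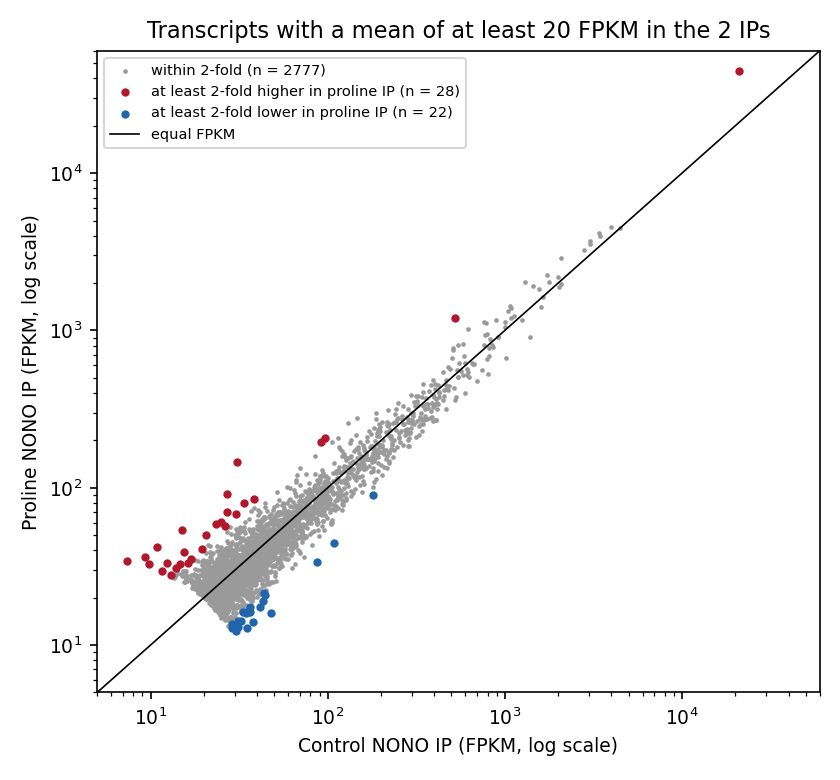
FPKM of the 2827 members, control NONO IP on the x axis and proline NONO IP on the y axis, both on log scales, 1 library each; the line marks equal FPKM. The 2777 grey points lie within 2-fold on the log2(FPKM + 1) scale, and the 28 red and 22 blue points are at least 2-fold higher and lower; the point at the top right is the most-read transcript.

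Read depth set how far a small difference could be told from counting error. For the 58 members with fewer than 50 reads in the IPs together, the differences had an SD of 0.69 across members, beside a median counting SD of 0.47. The median difference of these 58 was 0.33, with 38 above 0 and 20 below, beside -0.10 over all members. They were chosen on the sum of reads, in which the deeper control IP weighs more. Whether this choice favours a positive difference was not tested. For the 452 members with 500 to 1000 reads the SD across members was 0.29 and the median counting SD 0.12. For the 221 members with 1000 to 5000 reads the values were 0.34 and 0.079. Among the better-read members the differences thus spread wider than read counting alone, and how much of that is spread between cultures was not measured.

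**Figure D2:**
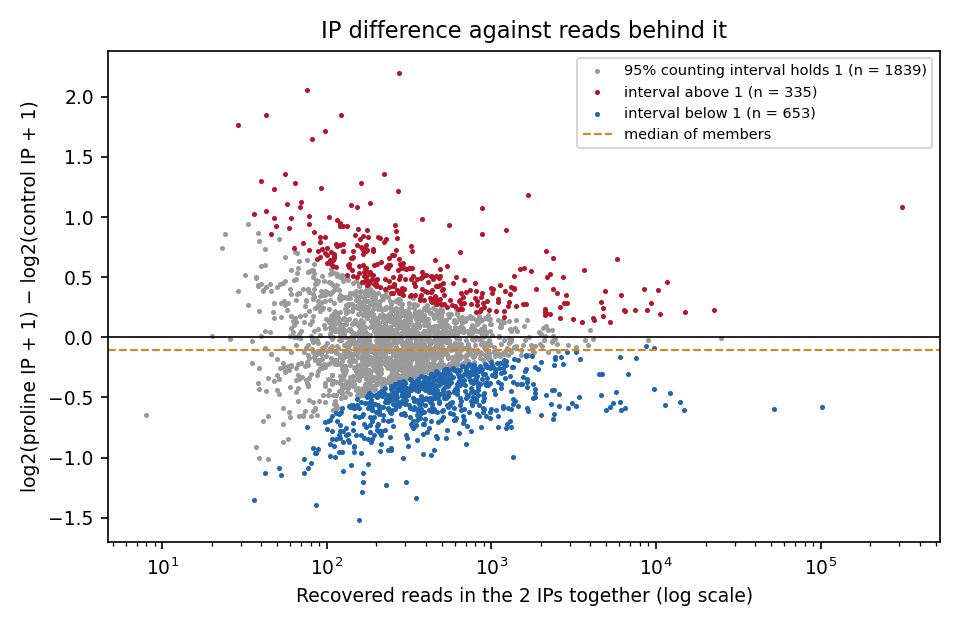
Difference between the IPs on the log2(FPKM + 1) scale (y axis) against the recovered reads in the 2 IPs together (x axis, log scale), 1 point per member; colours give the side of the 95% counting interval of the FPKM ratio. The interval lay above 1 for 335 members and below 1 for 653, and the dashed line is the median of -0.10.

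The single most-read transcript, ENSMUST00000038863 of 3894 nt, stood apart from all others. Its level was 21030 FPKM in the control IP against 44577 in the proline IP, which is 2.12 times as high (95% counting interval 2.10 to 2.13). Of all IP reads it took 8.19% in control cells and 17.4% under proline. In the inputs it stood at 30.2 and 74.4 FPKM, a ratio of 2.46. Leaving this transcript out of both IP totals raises every other FPKM value of the proline IP, relative to the control IP, by 0.15 on the log2 scale. The median over members was -0.10 as deposited. Since FPKM is a share, more of this RNA and less of the others cannot be told apart.

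The next most-read members were long RNAs that stood far lower in the inputs than in the IPs and had lower levels in the proline IP. ENSMUST00000020488, of 123179 nt, held 75218 control IP reads (4.21%) and 26921 proline IP reads (2.82%). It stood at 341.7 and 228.9 FPKM in the control and proline IPs, a ratio of 0.670 (0.661 to 0.679), and at 32.6 and 30.5 FPKM in the inputs. The 21388-nt transcript stood at 1014 and 671.7 FPKM in the IPs, a ratio of 0.663 (0.650 to 0.676), and at 40.9 and 47.7 FPKM in the inputs. Both therefore had about the same ratio between the IPs although their lengths differ widely.

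A 4412-nt transcript stood at 1388 and 911.3 FPKM in the IPs (ratio 0.656, 0.633 to 0.681). An 8228-nt transcript had 694.4 and 478.9 FPKM (0.690, 0.664 to 0.716), and a 17152-nt one 286.3 and 207.7 FPKM (0.726, 0.697 to 0.755). All 5 of these long transcripts had ratios near each other, with inputs between 20.1 and 59.6 FPKM.

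The other 4 of the 10 most-read members were shorter RNAs that were abundant in the lysate, and none of them was lower beyond counting error. The 2034-nt transcript was at 4471 and 4455 FPKM in the control and proline IPs, a ratio of 0.996 (0.971 to 1.02), with 5441 and 5510 FPKM in the inputs. The 2571-nt transcript had 3030 FPKM in the control IP against 3553 in the proline IP (ratio 1.17, 1.14 to 1.20), and its input ratio was 1.59. For the 1499-nt transcript the values were 3448 and 3980 FPKM (1.15, 1.12 to 1.19), with an input ratio of 1.47. The 1810-nt transcript had 2085 and 2872 FPKM (1.38, 1.33 to 1.43), with an input ratio of 1.20.

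**Figure D3:**
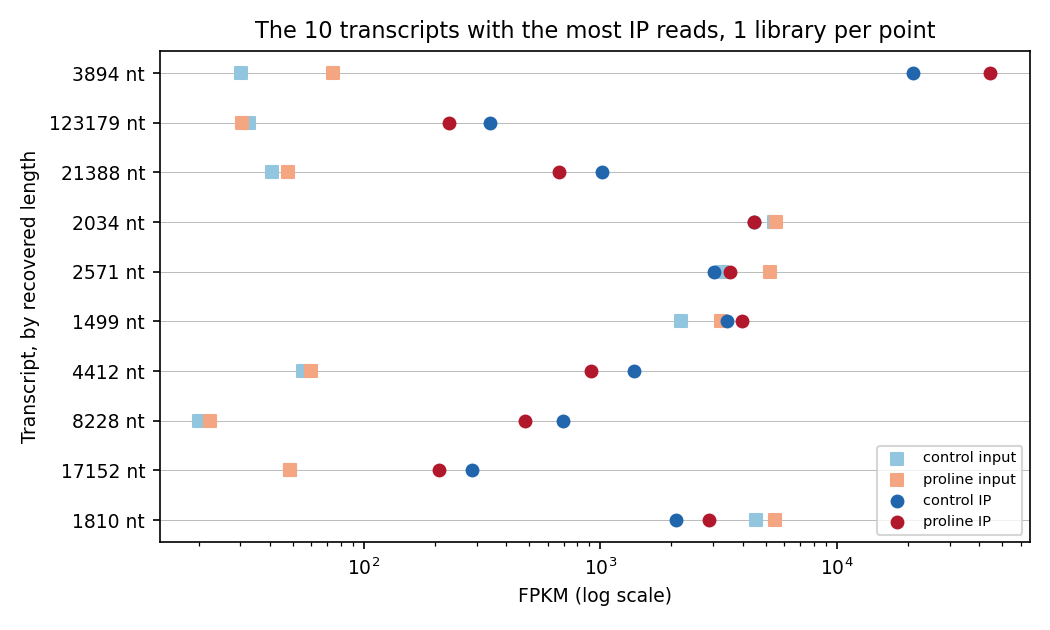
FPKM (x axis, log scale) in the 4 libraries for the 10 members with the most IP reads, named by length and ordered from the most reads at the top; circles are IPs, squares inputs, 1 library per point. For the 5 long transcripts of 4412 to 123179 nt the proline IP lies left of the control IP at ratios of 0.656 to 0.726, while for the 3894-nt transcript it lies right of it at a ratio of 2.12.

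Most members far higher in the IPs than in the lysate were lower in the proline IP. The mean IP level was at least 8-fold above the mean input level, on the log2(FPKM + 1) scale, for 82 members, and their median difference between the IPs was -0.55 (quartiles -0.64 and -0.37). Their intervals lay below 1 for 62 (75.6%) and above 1 for 7 (8.54%), beside 23.1% and 11.9% of all members. Under the other scalings named above, the median stayed negative in both length groups of this set that follow. The set and its length groups were chosen after the values were seen. It was defined on the mean of both IPs, and whether this favours a direction at their unequal depths was not tested.

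Of the 82, 57 were at least 2000 nt long, and 56 of these were lower in the proline IP; the exception was the most-read transcript. Without it the 56 differences had a median of -0.56, an SD of 0.146 and a range of -0.94 to -0.23. Their median ratio was 0.677, and the counting interval held that ratio for 50 of the 56. For the 29 with at least 1000 IP reads the ratio ranged from 0.586 to 0.772. Their inputs differed by less than 1.5-fold for all 56, with a median input difference of 0.078, on the log2(FPKM + 1) scale. As plain FPKM ratios the inputs ran from 0.773 to 1.56, with 55 of the 56 within 1.5-fold. Together they took 11.4% of control IP reads and 7.65% of proline IP reads. For the 57, scaling to equal FPKM totals gave a median of -0.62 and leaving the most-read transcript out of the totals gave -0.41. By comparison, the 1572 members of at least 2000 nt that stood under 8-fold above input had a median difference of -0.12. The 92 of them with at least 8000 nt had one of -0.22. A lower level was not confined to the 8-fold set. The 47 members of any length at 2 to 3 above input on the log2 scale had a median of -0.41. Their intervals lay below 1 for 28 (59.6%) and above 1 for 3 (6.38%). For the 132 members at 1 to 2 above input the median was -0.076.

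The 25 short RNAs of the set, under 2000 nt, included members on both sides of 0. Their median difference was -0.50, with quartiles of -0.66 and 0.18, and 9 of them (36%) were above 0, beside 39.3% of all members. Transcripts of 925, 926 and 927 nt are among those above 0, and they recur below among RNAs of near-equal length that may share reads. A 1033-nt transcript had 3038 FPKM in the control IP against 3710 in the proline IP (ratio 1.22, 1.17 to 1.27), with only 23.9 and 22.2 FPKM in the inputs. A 465-nt transcript had 3387 and 4155 FPKM (1.23, 1.16 to 1.30), with 330.6 and 300 FPKM in the inputs. A 449-nt transcript, at 3.51 and 5.56 FPKM in the inputs, was at 1254 and 1164 FPKM in the IPs, a ratio of 0.928 whose interval of 0.832 to 1.03 holds 1. A 715-nt transcript was at 180 and 89.4 FPKM, a ratio of 0.496 (0.368 to 0.661), with 4.16 and 5.57 FPKM in the inputs. These 4 were picked after their values were seen.

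**Figure D4:**
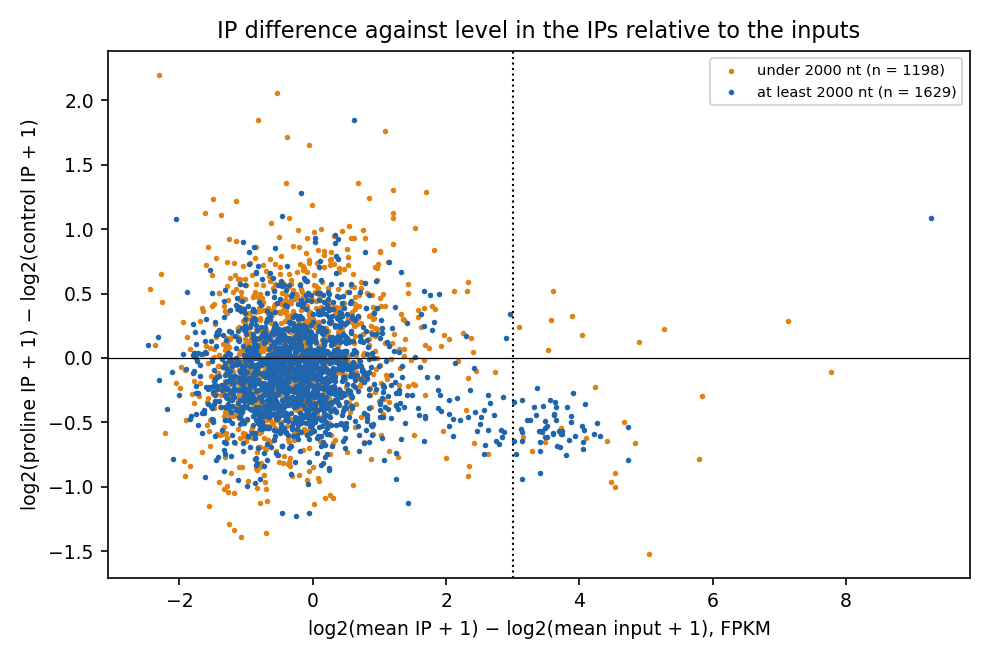
Difference between the IPs (y axis, log2(FPKM + 1) scale, proline minus control) against the mean IP level relative to the mean input level (x axis, same scale), 1 point per member; orange points are under 2000 nt and blue points at least 2000 nt. Right of the dotted line at 3 lie 82 members, of which the 57 long ones have a median of -0.56 and, with 1 exception, lie below 0.

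Several of the abundant short RNAs had nearly the same length. The 6 members of 925 to 928 nt with a mean IP level of at least 1000 FPKM were all higher in the proline IP, with differences of 0.12 to 0.38 and a median of 0.21. All 6 intervals lay above 1. The highest of them, of 925 nt, was at 3958 and 4521 FPKM in the IPs (ratio 1.14, 1.10 to 1.19) and at 932.6 and 846.5 FPKM in the inputs. The 928-nt transcript was at 1730 and 2257 FPKM in the IPs (1.30, 1.23 to 1.38), while its inputs were 73.8 and 1043 FPKM (ratio 14.1, 13.4 to 14.9). The other 5 had input ratios between 0.892 and 0.955. Transcripts so alike in length may be near-identical copies that share reads, so their separate values are uncertain. These 6 were picked after their values were seen.

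The most abundant RNAs in the IPs were mostly higher in the proline IP. The 29 members at 1000 FPKM or more in the IPs had a median difference of 0.21, with 21 intervals above 1 (72.4%) and 4 below (13.8%), beside 11.9% and 23.1% of all members. Among these 21 are the 6 transcripts of 925 to 928 nt described above, which may share reads. The most-read transcript and the 1033- and 465-nt transcripts are among them too, so this result is not separate from those above. The 29 had a median of 6099 IP reads, so smaller differences lie beyond counting error here than in most members. For 13 of the 29 the mean IP level lay below the mean input level. Their median stayed positive under equal FPKM totals, at 0.15, and under totals that leave out the most-read transcript, at 0.36. The 5 lower classes of IP level had medians between -0.13 and -0.067. The 1345-nt transcript was the second highest of the 29 by difference, at 1304 and 2046 FPKM in the IPs (ratio 1.57, 1.49 to 1.65) and 925.4 and 3364 FPKM in the inputs.

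Longer members tended to be lower. The median difference was 0.033 for the 52 members under 500 nt, 0.0093 for the 333 of 500 to 1000 nt and -0.051 for the 813 of 1000 to 2000 nt. It was -0.10 for the 1009 members of 2000 to 4000 nt, -0.17 for the 517 of 4000 to 8000 nt, -0.23 for the 93 of 8000 to 16000 nt and -0.46 for the 10 longer ones. The signs depended on the scaling. With equal FPKM totals the medians of all 7 classes were negative, from -0.020 to -0.51. With the most-read transcript left out of the totals, the 4 classes under 4000 nt had medians of 0.18, 0.16, 0.097 and 0.048, and the 3 longer ones -0.020, -0.088 and -0.31. The median was lower in each longer class under all 3 scalings. No member of 4000 nt or more was 2-fold higher or lower. Intervals below 1 were found for 37.7%, 57.0% and 80% of members in the last 3 classes and intervals above 1 for 6.96%, 6.45% and 0%, beside 23.1% and 11.9% of all members. These classes also hold the most reads per member and so show smaller differences beyond counting error.

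Members that were scarce in the lysate were lower, but many of them belong to the set at least 8-fold above input described above. Every member had a mean IP level of at least 20 FPKM, so a low input by itself places a member above its input. The result for scarce members is therefore not separate from the result for that set. The 56 members with a mean input under 5 FPKM had a median difference of -0.55, and 53 of them were below 0, beside 1717 of all 2827 members. For the 5 classes of higher input the medians lay between -0.15 and -0.060. The 7 members listed at 0 in both inputs were all lower in the proline IP, with a median of -0.66. The interval lay below 1 for only 3 of the 7 (42.9%), beside 23.1% of all members. The shortest of the 7, at 135 nt, rests on 6 and 2 reads (ratio 0.624, 0.0616 to 3.49). Among the 3 is the member with the lowest difference of all, ENSMUST00000171947 of 1563 nt, at 48.0 FPKM on 134 control IP reads and 16.1 FPKM on 24 proline IP reads. Its ratio was 0.335 (0.208 to 0.520). At the depth of the control input, no read at all leaves room for at most 1.35e-05% of the library, the share of 3 reads.

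The difference between the IPs went part of the way with the difference between the inputs. Of the members, 243 (8.6%) had 2-fold or more in the proline input and 118 (4.17%) were lower by 2-fold or more. Those 118 had a median difference of -0.51 in the IPs beside -1.24 in the inputs. The 56 members with an input difference of at least 2 on the log2 scale had medians of 0.61 in the IPs and 2.56 in the inputs, and the 187 with an input difference of 1 to 2 had medians of 0.28 and 1.37. Over all members the slope of the IP difference on the input difference was 0.28, with a Pearson correlation of 0.52 across transcripts. Since the classes were set on the input differences, the choice itself widens those relative to the IP differences.

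**Figure D5:**
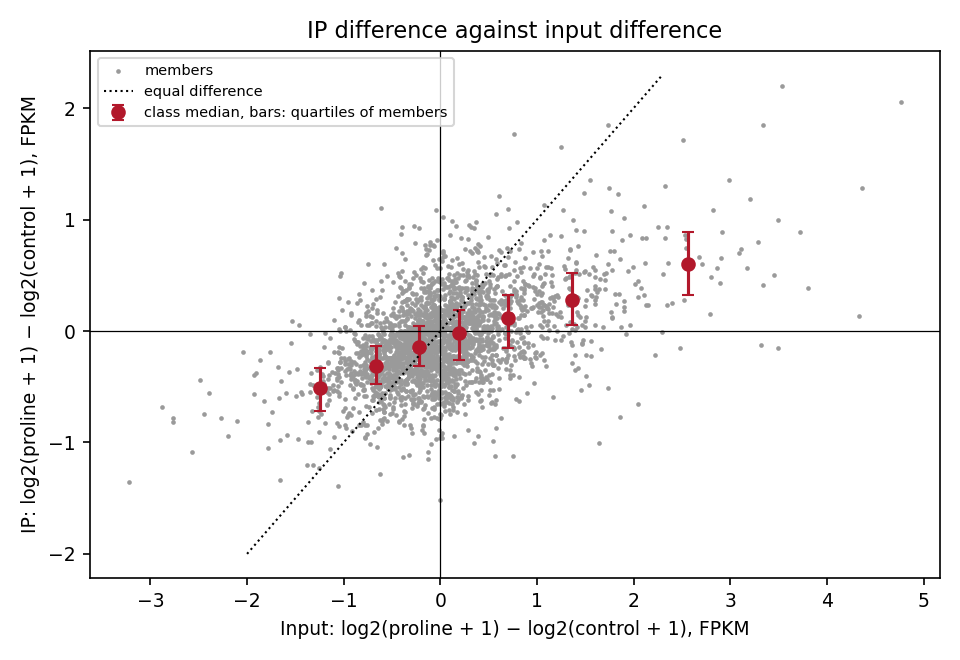
Difference between the IPs (y axis) against the difference between the inputs (x axis), both as log2(proline FPKM + 1) minus log2(control FPKM + 1), 1 grey point per member; red points are medians of 7 classes of input difference, with bars for the quartiles of the members. The class medians run from -0.51 to 0.61 in the IPs while those of the inputs run from -1.24 to 2.56, flatter than the dotted line of equal differences.

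Most of the 28 members with 2-fold or more in the proline IP were also higher in the proline lysate. Of these, 21 had 2-fold or more in the proline input too, as 8.6% of all members did, and 7 differed by less than 2-fold there. Their median input difference was 1.75. They were short, with a median of 1154 nt and at most 3894 nt, and had a median of 86.5 reads in the IPs together. Only 12 of them had at least 100. With at least 20 FPKM in each IP, 14 of the 28 remained, so the others passed the limit through the proline IP alone.

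The highest difference was that of ENSMUST00000086833, of 1411 nt, at 30.9 FPKM on 78 control IP reads and 145.5 FPKM on 196 proline IP reads. Its ratio was 4.70 (3.60 to 6.20), beside 69.5 and 814.6 FPKM in the inputs, a ratio of 11.7. The 1664-nt transcript was at 7.40 and 34.0 FPKM in the IPs (ratio 4.59, 2.75 to 7.92) on 22 and 54 reads. It also had the widest input difference of the 10 members with the highest differences, from 1.22 to 59.5 FPKM. The 2045-nt transcript was at 10.9 and 42.0 FPKM in the IPs (3.84, 2.60 to 5.75) and 2.20 and 31.5 FPKM in the inputs. In these 3 the difference was wider in the lysate than in the IPs.

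The next of these 10 rested on fewer reads or smaller ratios. The 837-nt transcript had 14 and 29 IP reads (ratio 3.88, 1.98 to 7.94), and the 371-nt one had 10 and 19 (3.56, 1.57 to 8.56). The 727-nt transcript was at 26.9 and 90.8 FPKM (3.37, 2.19 to 5.25), and the 1656-nt one at 9.80 and 32.9 FPKM (3.36, 2.09 to 5.48). The last 3 of the 10, of 1037, 1930 and 408 nt, had ratios of 2.69, 2.62 and 2.53. The input ratio exceeded 2 for all of these except the 371-nt transcript, at 1.76. Among higher levels, an 806-nt transcript was at 524.2 and 1193 FPKM in the IPs (2.28, 2.06 to 2.51) on 755 and 918 reads, with an input ratio of 9.29.

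A few members were higher in the proline IP without a like difference in the lysate. The 680-nt transcript was at 26.3 and 57.0 FPKM in the IPs (ratio 2.16, 1.31 to 3.59) on 32 and 37 reads, with 54.3 and 52.8 FPKM in the inputs. The 992-nt transcript was at 14.7 and 32.7 FPKM in the IPs (2.23, 1.28 to 3.91), and its input was lower in proline, at 76.5 and 49.6 FPKM. The 1976-nt transcript, the best read of the 7, was at 33.7 and 79.5 FPKM (2.36, 1.84 to 3.03) on 119 and 150 reads, with an input ratio of 1.53. These 3 were picked after their values were seen.

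The 22 members lower by 2-fold or more in the proline IP were lower in the lysate too more often than members in general. Of these, 9 were lower by 2-fold or more in the proline input, beside 4.17% of all members. Another 12 differed by less than 2-fold there and 1 was 2-fold higher. Among all members most lay within 2-fold in the inputs, with 8.6% higher and 4.17% lower by 2-fold or more. The 22 had a median input difference of -0.64 and a median length of 1128 nt, and 11 had at least 100 reads in the IPs together. Only 5 of the 22 had at least 20 FPKM in each IP, so the others passed the limit through the control IP alone.

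After the 1563-nt transcript described above, the lowest differences were those of a 1144-nt transcript and a 445-nt transcript. The 1144-nt one was at 35.2 and 12.8 FPKM in the IPs (ratio 0.364, 0.190 to 0.651) and 70.1 and 33.0 FPKM in the inputs. The 445-nt one was at 37.7 and 14.1 FPKM (0.374, 0.127 to 0.914) on 30 and 6 reads, with an input that went from 77.8 to 7.45 FPKM. The 1853-nt transcript, the best read of the 10 members with the lowest differences, was at 87.0 and 33.9 FPKM on 288 and 60 reads (0.390, 0.290 to 0.516). Its input was 211.9 and 66.2 FPKM. For these 3 the input was lower in proline too.

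Among the others of these 10, the 3475-, 2414- and 3378-nt transcripts had IP ratios of 0.408, 0.416 and 0.421, close to their input ratios of 0.404, 0.388 and 0.369. The 686-nt transcript was at 109.3 and 44.3 FPKM in the IPs (ratio 0.405, 0.261 to 0.609) with an input ratio of 0.646. The 739- and 764-nt transcripts had IP ratios of 0.435 and 0.444 with input ratios of 0.911 and 0.756. A 2067-nt transcript outside the 10 was lower in the IP, at 36.5 and 16.2 FPKM (0.444, 0.292 to 0.656), while its input went from 6.54 to 11.7 FPKM. It was singled out after its values were seen.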

How the data were processed

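The authors deposited 1 table per library, in FPKM per Ensembl transcript, with up to 9 decimals and 10 significant digits. Genome builds GRCm38 and mm10 are named per the submitters' processing notes; the sources used here do not state the aligner, counting tool or annotation. Tables were joined on the identifier. A library total was taken where 300 low values turn into whole lengths; then the smallest whole length and reads that fit all 4 libraries were taken; they were found for 20230 of 20230 detected transcripts. Reads can be too few where length and reads share a factor, and whether a read is a fragment is not given. Recovered reads took 98.3% of the control IP total and 98.4% of the proline IP total. Recovery and comparison were run on data simulated from the recovered lengths and reads, with the FPKM formula and rounding that the recovery assumes. Such a run cannot show whether the deposited values follow that formula.

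Differences used a pseudocount of 1 FPKM, which makes differences of low transcripts smaller than their ratios. Intervals of FPKM ratios are 95% Clopper-Pearson intervals. Singly described were the 10 members with most IP reads and the 10 largest positive and negative differences whose interval excludes 1; any others were chosen after their values were seen. Members, lists and rules were chosen with earlier results of these data known. Python 3.11.15, pandas 2.3.3, numpy 2.4.6 and SciPy 1.17.1 were used. Gene lists fixed for named genes gave no result, as 0 transcripts could be named.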

Additional observations from a re-analysis of the deposited data

Results flagged for a closer look

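Of all members, 1 moved in opposite directions in the inputs and the IPs by at least 2-fold each. The 520-nt transcript had 21.3 FPKM in the input of the control and 68.5 under proline. In the IPs it had 33.4 FPKM in the control and 16.1 under proline, an IP difference of -1.01 on the log2(FPKM + 1) scale. The IP values rest on 31 and 8 reads, the counting interval of the ratio of 0.483 runs from 0.192 to 1.07 and holds 1, and the difference between input and IP was not tested.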

How the results depend on the processing

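No paired analysis was possible because each group holds 1 library, and no library could be left out for the same reason. The median over the 2827 members was -0.10 as deposited and turned to 0.047 with IP totals that leave out the most-read transcript, or to 0.044 over the 3288 transcripts chosen again after that scaling. It was -0.13, -0.070 and -0.15 at mean IP limits of 10, 50 and 1 FPKM, -0.083 with at least 20 FPKM in each IP and -0.15 with equal FPKM totals, both over the same members and over the 2776 chosen again. The 28 higher and 22 lower members became 63 and 84 at a limit of 10 FPKM, 8 and 3 at 50 FPKM, and 502 and 1005 at 1 FPKM. They became 14 and 5 with at least 20 FPKM in each IP, a limit that removes members through their lower side. With totals that leave out the most-read transcript they became 53 and 9 over the same members and 69 and 13 over the 3288 chosen again. They became 44 and 13 centred on the median, and 12 and 11 with at least 100 IP reads, a limit added after seeing the data, as were the scalings over the same members. The 28 and 22 became 21 and 8 with a pseudocount of 5, and 31 and 27 with one of 0.1. With control IP reads thinned at random to the proline IP total they became 34 and 32 over 2825 transcripts, with a median of -0.10. The cause of none of these shifts was tested. The median of the long RNAs enriched in the IPs was -0.61 with equal totals and -0.41 with totals lacking the most-read transcript, both added after seeing the data, each over the transcripts that met the limits under that scaling. The slope on the input stayed between 0.277 and 0.289 in the 3 alternatives run for it. Depth limits the members with under 50 IP reads most.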
